A study of Homo sapiens with 4 samples.

Results

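The response of the RKO cell line to AVEN overexpression was described from 1 library of cells overexpressing AVEN (OE) and 1 library of cells wildtype for AVEN (WT). Members are the genes annotated as protein-coding whose mean over the 2 libraries was at least 1 FPKM (fragment counts scaled by transcript length and by library size), which left 9590 of the 19673 protein-coding genes and of the 60612 genes of all kinds in the table. Just inside that threshold lay TRIM23 (mean 1.00068 FPKM), PACRGL and ATF3, and just outside it lay SLC5A3 (mean 0.999542 FPKM), HERC1 and SLC38A6. RKO is an established human colorectal cancer line. The same study compared OE with WT in HCT116, a second colorectal cancer line, so the series holds 4 poly(A)-selected libraries in 4 groups, 1 library per group. How overexpression was brought about, and whether the OE cells are a clone or a pool, is not given in the labels. With 1 library per group no difference has a replicate check and none was tested, and "higher" and "lower" describe the libraries that were sequenced.

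AVEN binds the survival protein BCL-xL and the apoptosome scaffold APAF1, and it restrains caspase activation when mitochondria release cytochrome c. It also activates the DNA damage kinase ATM, and as an RNA-binding protein it has been tied, with the helicase DHX36, to the translation of mRNAs that hold guanine-rich structures. ATF4, which recurs below, is the transcription factor of the integrated stress response and switches on amino acid uptake and synthesis genes.

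Differences are given as log2((OE + 1)/(WT + 1)) of FPKM, so positive values mean higher in OE, and low genes are understated. A second value, the GC-corrected difference, is a gene's difference from the local trend over genes of like transcript GC content. Folds are ratios of FPKM, with 95% exact counting intervals in brackets from estimated fragments, at about 19.6 fragments in OE and 20.5 in WT for 1 FPKM on 1 kilobase. The intervals cover counting error only. A gene is counted as higher or lower when this log2 difference is at least 1 on either side, which is 2-fold on that scale.

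The libraries of RKO were alike in depth and in the share of FPKM from mitochondrial genes, at 30.3% in OE and 32.8% in WT, against 45.6% in OE and 44.7% in WT of HCT116. Protein-coding genes at 1 FPKM or more numbered 9340 in OE and 9763 in WT. Colonic epithelium markers were mostly absent from both RKO libraries: 2 of 12 were measured, CDX2 at 4.83 FPKM in OE and 4.38 in the WT library, and EPCAM at 2.02 in OE and 3.08 in WT, and 8 of the 12 were listed at the floor of 0.0001 in both, among them CDH17, KRT20, MUC2 and VIL1. Markers of fibroblasts (0 of 8 measured), endothelium (0 of 6) and adipocytes (0 of 5) summed to at most 1.14 FPKM in either library. Of 7 blood cell markers only CD68, a lysosomal glycoprotein also made outside blood, was measured, at 195.5 FPKM in OE and 197 in WT.

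Stretches of sequence from 5 genes are shown first, to let the base composition and the promoters of genes described below be read beside their values. The first 3 show base composition, which runs through this comparison. Each is the middle 120 bases of the coding sequence of the longest coding transcript in GENCODE release 29, with G and C in capitals. TMEM41B (chr11:9280654-9314780, minus strand) was higher in OE and IL13RA2 (chrX:115003975-115019977, minus strand) lower in OE, and both are poor in GC, at 38.3% of the stretch. IER2 (chr19:13150415-13154908, plus strand) was lower in OE and is rich in GC, at 70.8% of the stretch. TMEM41B and IER2 therefore moved against the overall trend with GC content described below.
TMEM41B: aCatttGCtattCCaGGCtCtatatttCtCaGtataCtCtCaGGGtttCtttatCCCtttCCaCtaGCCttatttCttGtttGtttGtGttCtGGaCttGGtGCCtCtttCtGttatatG
IL13RA2: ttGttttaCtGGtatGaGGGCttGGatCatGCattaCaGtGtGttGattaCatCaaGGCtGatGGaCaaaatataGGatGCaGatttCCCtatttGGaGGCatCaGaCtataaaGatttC
IER2: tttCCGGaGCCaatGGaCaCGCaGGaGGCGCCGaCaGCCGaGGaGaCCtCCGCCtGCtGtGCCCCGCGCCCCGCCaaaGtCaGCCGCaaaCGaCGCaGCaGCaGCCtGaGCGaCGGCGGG

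The other 2 are promoters, 250 bases before to 50 after the transcript start, from RefSeq on GRCh38.p14, with the searched motifs in capitals. CHAC1 (chr15:40953221-40953520, plus strand) holds 1 match to TGATGNAA, the composite element of C/EBP and ATF proteins, on the reverse strand, 209 bases before the start. CDK4 (chr12:57752261-57752560, minus strand) holds 3 matches to CACGTG, the E-box of MYC and related factors, 216, 196 and 101 bases before the start. Both genes were at least 2-fold higher in OE.
CHAC1: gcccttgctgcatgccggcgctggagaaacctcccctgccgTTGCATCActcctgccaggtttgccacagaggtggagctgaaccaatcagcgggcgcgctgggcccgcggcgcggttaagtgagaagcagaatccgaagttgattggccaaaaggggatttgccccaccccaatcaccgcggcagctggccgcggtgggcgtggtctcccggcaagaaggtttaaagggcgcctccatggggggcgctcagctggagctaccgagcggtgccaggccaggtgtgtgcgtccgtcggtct
CDK4: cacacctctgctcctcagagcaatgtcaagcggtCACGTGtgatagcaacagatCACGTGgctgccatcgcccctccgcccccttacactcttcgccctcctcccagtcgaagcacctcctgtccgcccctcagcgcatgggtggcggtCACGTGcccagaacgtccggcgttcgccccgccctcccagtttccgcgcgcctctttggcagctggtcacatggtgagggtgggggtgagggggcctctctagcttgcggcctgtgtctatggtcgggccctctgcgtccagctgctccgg

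Over all promoters of members found in RefSeq (7856 genes by symbol, both strands, any listed start), TGATGNAA was present in 2.39%. It was present in 5 of the 70 higher genes with a promoter and in 5 of the 114 lower ones. CACGTG was present in 13.3% of all promoters, in 8 of the 70 higher genes and in 15 of the 114 lower ones. These are matches of letters in a window and say nothing of binding.

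AVEN itself stood at 4.43 FPKM in OE and 1.34 FPKM in WT, or about 68 and 21 estimated fragments. The OE library held the higher level, 3.32-fold higher (2.04 to 5.80), with a difference of 1.22 and a GC-corrected difference of 1.34. AVEN (ENSG00000169857; chr15:33866227-34039176, minus strand, GRCh38) nevertheless remained a low-level mRNA in the OE library. In the HCT116 table, which was normalized separately, AVEN was at 2.96 FPKM in OE, against 1.53 in WT. The partners of AVEN in the apoptosome and in ATM signalling differed less. APAF1 was at 1.85 FPKM in OE, against 3.36 in WT, BCL2L1, which encodes BCL-xL, at 60.9 FPKM in OE, against 73.2 in WT, and CASP9, the initiator caspase of the apoptosome, at 1.77 FPKM in OE, against 2.08 in WT. DHX36 was at 1.67 FPKM in OE, against 2.46 in WT. Both DHX36 (GC content 37.5%) and APAF1 (40.4%) are GC-poor. After GC correction the difference of DHX36 went from -0.38 to 0.02 and that of APAF1 from -0.61 to -0.23. Those of BCL2L1 (-0.26 to -0.34) and CASP9 (-0.15 to -0.23) went further below 0. ATM (0.197 FPKM in OE and 0.394 in WT) and XIAP (0.191 in OE and 0.581 in WT), the caspase inhibitor, were under the threshold in both libraries. AVEN was the only one of 8 measured genes of this list that differed at least 2-fold.

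Over all members, 244 of 9590 (2.54%) differed at least 2-fold, 92 higher (0.959%) and 152 lower (1.58%) in OE. The median difference was -0.10, with 3811 genes above 0 and 5779 below, so that most genes stood slightly lower in OE. Centred on the median of all genes tested, the split was 109 higher and 111 lower, and after GC correction it was 94 higher (0.981%) and 111 lower (1.16%), together 2.14% of the 9581 genes with a GC content. By both measures 80 genes were higher and 95 lower. Genes that share at least 50 exon bases with another gene on the same strand made up 16.1% of members and 24.6% of those that differed, 60 of 244, and the way fragments of such genes were divided is not stated in the labels or the files. The authors' deposited table marked 190 members, of which 165 were among the 244, and gave 24 members a q-value under 0.05.

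The difference in RKO followed transcript GC content. Across 9581 genes the Spearman rho was 0.579, a description across genes, which are not independent replicates. In the decile of genes with the lowest GC content (median 39.4%) the median difference was -0.39 and 4.80% of genes stood above 0. In the decile with the highest GC content (median 64.1%) it was 0.19 and 74.3% stood above 0. GC-poor mRNAs were thus lower in OE as a class and GC-rich mRNAs higher. In HCT116 the rho was -0.13 over 10056 genes, and the medians of its lowest and highest deciles were 0.05 and -0.04.

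**Figure D1:**
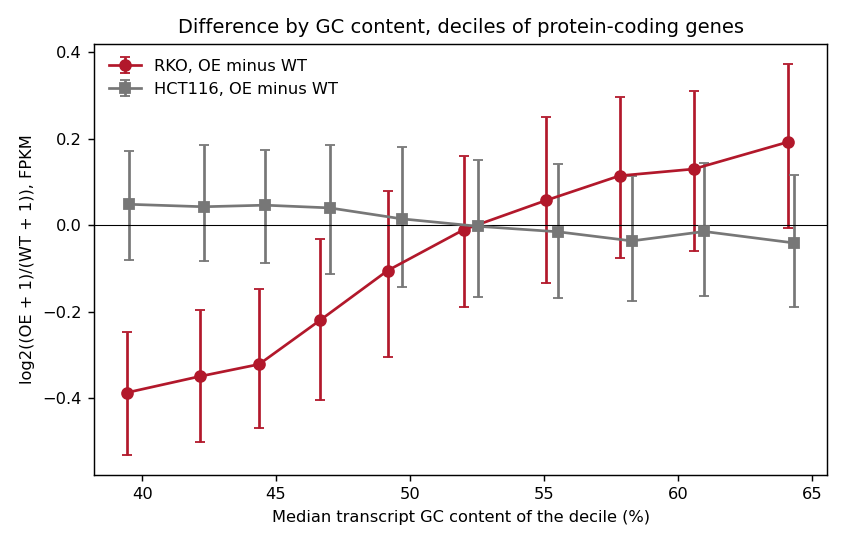
Median log2((OE + 1)/(WT + 1)) of FPKM (vertical axis) by the median transcript GC content in percent (horizontal axis) for deciles of protein-coding genes in RKO (circles) and HCT116 (squares), with bars from the lower to the upper quartile of genes. In RKO the medians run from -0.39 in the lowest decile to 0.19 in the highest, and in HCT116 they stay between -0.04 and 0.05.

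The trend was present at every level of expression and every length: within quartile groups of the mean level rho lay between 0.496 and 0.596, and within quartile groups of transcript length between 0.507 and 0.609. By part of the mRNA, rho was 0.545 for the coding sequence, 0.4998 for the 3′ untranslated region and 0.135 for the 5′ untranslated region. The correlation of the difference with length itself was -0.196, and with the mean level 0.259. After GC correction these were -0.121 and 0.178, so a trend with level remained. The 2 RKO libraries lay on either side of the HCT116 libraries. Over 8912 genes, rho with GC content was 0.183 for RKO OE minus HCT116 OE and 0.125 for RKO OE minus HCT116 WT. It was -0.150 for RKO WT minus HCT116 OE and -0.214 for RKO WT minus HCT116 WT, across tables normalized separately. Library preparation and a difference between the cells cannot be told apart here. For the genes that follow, a call of at least 2-fold that is lost after GC correction is named as lost.

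The genes named first are the 15 highest and the 15 lowest by GC-corrected difference among members averaging 5 FPKM or more that share no exons and differ at least 2-fold by both measures. There were 67 of them, 34 higher and 33 lower. The largest positive difference belonged to H4C11, which encodes a histone H4, at 20.5 FPKM in OE, against 1.65 in WT. RAB5B, a GTPase of early endosomes, was at 15.4 FPKM in OE, against 1.67 in WT, 9.22-fold higher (6.92 to 12.4). TRIM32, a ubiquitin ligase, stood at 15.4 FPKM in OE, against 1.72 in WT, 8.94-fold higher (7.24 to 11.2). All 3 were near the threshold of measurement in WT and were well expressed in OE.

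Further members of the high end belong to growth control, transport and membrane traffic. CDKN1A, whose product p21 halts the cell cycle, was at 80.5 FPKM in OE, against 23.6 in WT, 3.40-fold higher (3.12 to 3.71). SLC7A5, the large neutral amino acid transporter LAT1, stood at 117 FPKM in OE, against 32.97 in WT, 3.53-fold higher (3.37 to 3.71). RASSF8, of the RAS association domain family, was at 10.1 FPKM in OE, against 2.33 in WT, with the GC-corrected difference of 2.04 above the 1.74 as deposited. The low GC content of RASSF8 (44.3%) put it among genes that were mostly lower in OE. TMEM41B, an endoplasmic reticulum scramblase needed for autophagosome formation, stood at 9.97 FPKM in OE, against 3.05 in WT. SRP9, a subunit of the signal recognition particle that brings nascent secretory proteins to the endoplasmic reticulum, was at 50.1 FPKM in OE, against 20.2 in WT, and TMEM230, of vesicle traffic, at 21.04 FPKM in OE, against 7.17 in WT. These 3 GC-poor genes had larger differences after the correction than as deposited (1.80 against 1.44 for TMEM41B), as RASSF8 did.

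NHERF1, a scaffold that ties membrane proteins to the actin cytoskeleton, stood at 46.5 FPKM in OE, against 11.97 in WT, 3.88-fold higher (3.39 to 4.47). LAMA1, the laminin alpha-1 chain of basement membranes, was at 8.94 FPKM in OE, against 2.61 in WT, and was at 0.00608 FPKM in OE and the floor in WT of HCT116. MAFK, a small MAF transcription factor, stood at 9.09 FPKM in OE, against 2.08 in WT, and SUN3, a nuclear envelope protein, at 21.4 FPKM in OE, against 9.27 in WT. ASB1, a SOCS box protein of ubiquitin ligases, was at 15.97 FPKM in OE, against 3.76 in WT, and TSN, the nucleic acid-binding protein translin, at 14.9 FPKM in OE, against 4.54 in WT.

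At the low end IER2, an immediate early gene of growth factor stimulation, stood at 2.75 FPKM in OE, against 28.1 in WT, 10.2-fold lower (8.41 to 12.5). MAP1LC3C, an ATG8 family protein of autophagosomes, was at 18.6 FPKM in OE, against 130.3 in WT, 7.01-fold lower (6.34 to 7.78). DUSP3, a phosphatase that acts on ERK and JNK, stood at 2.36 FPKM in OE, against 18.5 in WT, 7.86-fold lower (6.40 to 9.68). RGS4, which speeds the shut-off of G proteins, was at 10.5 FPKM in OE, against 79.6 in WT, 7.59-fold lower (6.79 to 8.51). All 4 were well expressed in WT and at or under 18.6 FPKM in OE.

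CALB2, the calcium-binding protein calretinin, stood at 20.9 FPKM in OE, against 88.8 in WT, 4.25-fold lower (3.79 to 4.78). IL13RA2, a receptor that binds interleukin-13 with high affinity, was at 3.47 FPKM in OE, against 19.4 in WT, 5.59-fold lower (4.38 to 7.17). RGS4, MAP1LC3C and IL13RA2 were each under 1 FPKM in both HCT116 libraries, so these 3 could not be compared between lines.

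DUSP6, the ERK phosphatase that ERK activity itself induces, stood at 16.8 FPKM in OE, against 48.9 in WT, 2.91-fold lower (2.65 to 3.21). MAPK14, the stress kinase p38 alpha, was at 3.59 FPKM in OE, against 13.6 in WT, 3.79-fold lower (3.14 to 4.63). ZFP36, which triggers decay of AU-rich mRNAs, stood at 3.77 FPKM in OE, against 9.83 in WT, and TEAD3, the DNA-binding partner of YAP, at 5.11 FPKM in OE, against 12.5 in WT. The remaining 5 were HSD3B7 (8.61 FPKM in OE, against 24.4 in WT), a bile acid synthesis enzyme, SLC10A3 (3.72 FPKM in OE, against 11.005 in WT), of the bile acid transporter family, PRDM8 (7.14 FPKM in OE, against 19.5 in WT), a transcriptional regulator, RGMB (11.5 FPKM in OE, against 29.5 in WT), a co-receptor for bone morphogenetic proteins, and TUBA4A (9.12 FPKM in OE, against 23.6 in WT), an alpha tubulin.

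**Figure D2:**
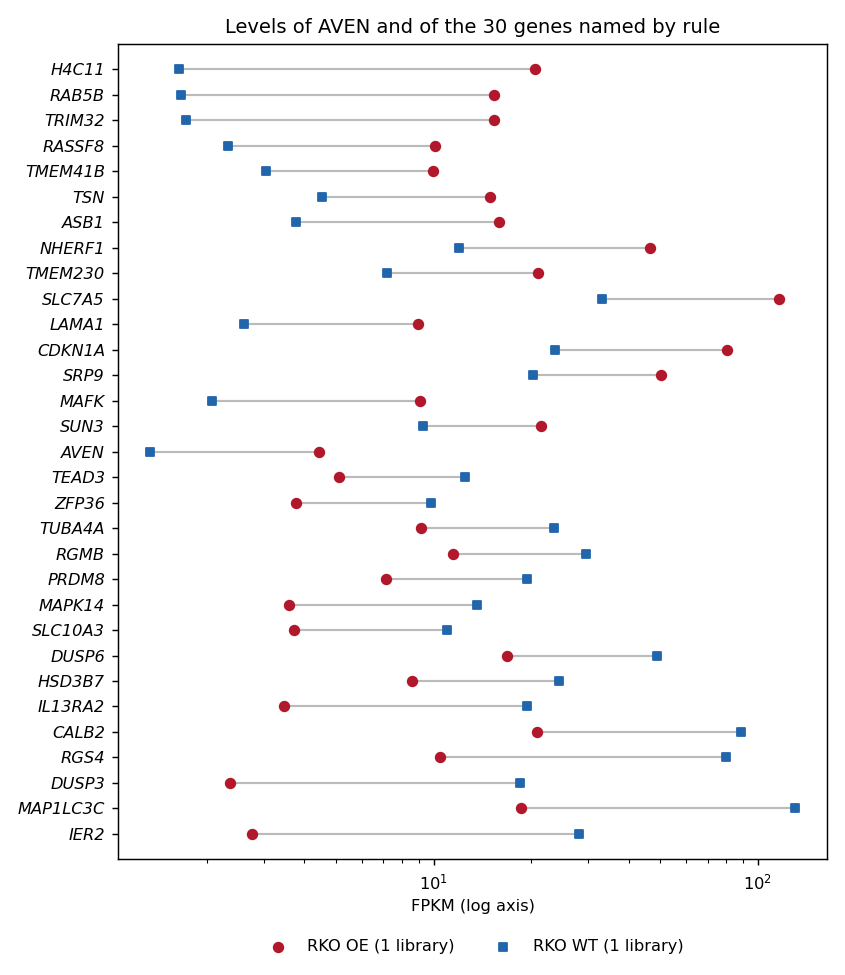
FPKM on a log axis (horizontal) of AVEN and of the 15 highest and 15 lowest genes by GC-corrected difference (vertical, in that order), with circles for RKO OE and squares for RKO WT, 1 library each. The gap is widest for H4C11 (20.5 FPKM in OE and 1.65 in WT) at the high end and for IER2 (2.75 FPKM in OE and 28.1 in WT) at the low end.

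Other genes past both measures were chosen after their values were seen. FOXM1, a transcription factor of mitotic genes, was at 46.03 FPKM in OE, against 20.3 in WT. TMBIM6, an endoplasmic reticulum protein that counters BAX-induced death, stood at 208 FPKM in OE, against 101 in WT, and TUBA1A, an alpha tubulin, at 38.3 FPKM in OE, against 13.4 in WT. STC1, the secreted glycoprotein stanniocalcin-1, was at 87.3 FPKM in OE, against 257 in WT, and S100A2, a calcium-binding protein, at 239 FPKM in OE, against 548 in WT. IGF2BP3, an RNA-binding protein of fetal tissue and tumours, stood at 1.76 FPKM in OE, against 7.73 in WT, and GFPT2, of hexosamine synthesis, at 28.2 FPKM in OE, against 66.6 in WT. STC1 and S100A2 were among the abundant mRNAs of RKO in both libraries and were lower in OE. Of the genes without shared exons, BLK, a SRC family kinase, was listed at 9.69 FPKM in OE and at the floor in WT, and S100A9, a myeloid calcium-binding protein, at 2.87 in OE and at the floor in WT.

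The gene lists are described by counts and medians beside the median over all members, which was -0.10 as deposited and 0.00 after GC correction. Of all members 39.7% stood above 0 and 60.3% below as deposited. After correction these shares were 49.9% and 50.1%, and the counts of list members above or below 0 are to be read beside them. Of 44 lists with at least 3 measured members, 10 had a median that changed sign under the correction. Lists whose members are GC-poor moved most. The mitosis and kinetochore list had a median of -0.39 as deposited and -0.11 after correction (30 measured members, median GC content 42.2%), and the DNA damage checkpoint and repair list -0.31 and 0.00 (33 members).

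**Figure D3:**
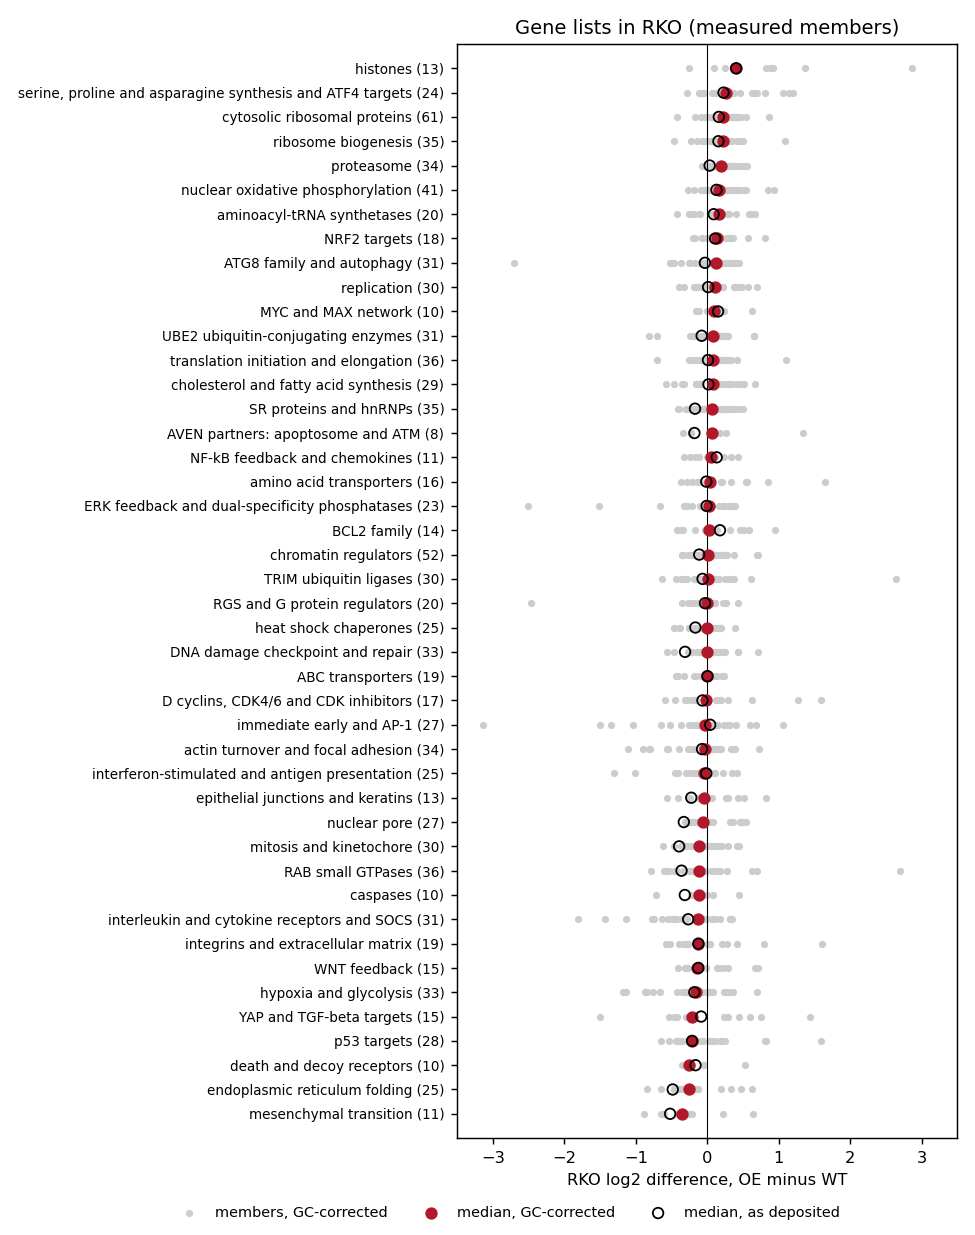
RKO log2 difference, OE minus WT (horizontal), for each gene list with at least 3 measured members (vertical, number of members in brackets), with open circles for the median as deposited, filled circles for the GC-corrected median and grey points for GC-corrected values of members. Histones (0.40) and ATF4 targets (0.26) have the highest GC-corrected medians, and the mesenchymal (-0.35) and endoplasmic reticulum folding lists (-0.26) the lowest.

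Genes of the ATF4 programme were higher as a list. Of 24 measured genes of serine, proline and asparagine synthesis and ATF4 targets, 18 stood above 0 and 3 were at least 2-fold higher, where 0.959% of all members were, with medians of 0.23 as deposited and 0.26 after correction. CHAC1, which degrades glutathione, was at 4.24 FPKM in OE, against 1.03 in WT, 4.12-fold higher (2.73 to 6.44). TRIB3, a pseudokinase that feeds back on ATF4, stood at 24.01 FPKM in OE, against 9.15 in WT, 2.63-fold higher (2.28 to 3.03). ATF3, a stress-induced transcription factor, was at 1.68 FPKM in OE, against 0.325 in WT, 5.17-fold higher (2.47 to 13.2), close to the threshold on expression. ATF4 itself stood at 20.5 FPKM in OE, against 11.7 in WT, and SESN2, which restrains mTORC1 when amino acids are short, at 25.9 FPKM in OE, against 13.1 in WT, both under 2-fold.

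Enzymes of the same list were spread around 0. PYCR3, of proline synthesis, was at 15.6 FPKM in OE, against 9.66 in WT. PSAT1, of serine synthesis, stood at 35.7 FPKM in OE, against 46.3 in WT, PHGDH, the first enzyme of that pathway, at 9.44 FPKM in OE, against 8.51 in WT, and MTHFD2, of mitochondrial folate metabolism, at 23.95 FPKM in OE, against 31.7 in WT. ASNS, the asparagine synthetase, which shares exons with another gene, was at 11.3 FPKM in OE, against 11.8 in WT. The 6 members below 0 as deposited included PSAT1, MTHFD2 and ASNS.

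Amino acid transporters had medians of -0.01 as deposited and 0.04 after correction over 16 measured genes, with 1 higher. Besides SLC7A5, the glutamine transporter SLC1A5 stood at 106 FPKM in OE, against 53.8 in WT, and SLC3A2, the heavy chain that carries LAT1 to the membrane, at 31.9 FPKM in OE, against 20.4 in WT. SLC38A2, another amino acid transporter, was at 31.1 FPKM in OE, against 50.04 in WT, on the other side. The pair that forms the LAT1 transporter was thus higher together, and the transporters as a list were spread around 0.

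Endoplasmic reticulum folding genes, which ATF6 and XBP1 control, lay on the opposite side from the ATF4 list. Of 25 measured members 22 stood below 0 as deposited and 21 after correction, with medians of -0.48 and -0.26, and none differed at least 2-fold. HSPA5, the chaperone BiP, stood at 242 FPKM in OE, against 344 in WT. PDIA4, a disulfide isomerase, was at 85.2 FPKM in OE, against 130.02 in WT, and EDEM1, which extracts misfolded glycoproteins, at 6.28 FPKM in OE, against 11.998 in WT. XBP1 stood at 10.5 FPKM in OE, against 15.8 in WT. Exceptions above 0 by both measures were HERPUD1, SYVN1 and CRELD2. HERPUD1, of the degradation pathway of the endoplasmic reticulum, was at 8.70 FPKM in OE, against 5.88 in WT. SYVN1, which shares exons with another gene, stood at 9.55 FPKM in OE, against 6.05 in WT, and CRELD2 at 5.96 FPKM in OE, against 4.52 in WT. DNAJB11, which also shares exons, was above 0 after correction only. In HCT116 the median of the folding list was 0.07, in a table normalized separately.

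Histone genes had medians of 0.40 as deposited and after correction, with 12 of 13 measured members above 0 and 3 at least 2-fold higher, where 0.959% of all members were. Besides H4C11, the linker histone gene H1-2 was at 71.3 FPKM in OE, against 34.7 in WT, under 2-fold after correction (0.91), and H2AC6 at 5.40 FPKM in OE, against 2.18 in WT, a difference of 1.01 that was 1.37 after correction. The list includes H1-10 (74.3 FPKM in OE, against 60.4 in WT), a linker histone that is not tied to replication. Most replication-dependent histone mRNAs lack a poly(A) tail, whereas the libraries were poly(A)-selected, and these genes have close copies in the genome, so their values are uncertain. Replication genes, for comparison, had medians of 0.01 as deposited and 0.11 after correction over 30 members, with none at least 2-fold apart.

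The ribosomal, proteasome and oxidative phosphorylation lists had medians slightly above that of all members. After GC correction the difference still rose with the mean level (rho 0.178 across genes), and most ribosomal protein mRNAs are abundant. The medians were not adjusted for level, so a trait of these families was not tested. Cytosolic ribosomal proteins had medians of 0.16 as deposited and 0.22 after correction, with 54 of 61 members above 0 after correction, and ribosome biogenesis genes the same medians, with 30 of 35 above 0. NOP2, a nucleolar methyltransferase that shares exons with another gene, was the 1 member of these 2 lists at least 2-fold higher, at 42.2 FPKM in OE, against 18.4 in WT. Proteasome subunits had medians of 0.03 and 0.19, with 28 of 34 above 0 after correction, and nuclear oxidative phosphorylation genes 0.13 and 0.17, with 33 of 41. NDUFS8, a subunit of respiratory complex I that shares exons with another gene, was the 1 member of the last list at least 2-fold higher, at 14.2 FPKM in OE, against 6.495 in WT, and was under 2-fold after correction, at 0.86. Single subunits lay on both sides, as for the ribosomal proteins RPL32 (257 FPKM in OE, against 149 in WT) and RPL26 (237 FPKM in OE, against 387 in WT), which both share exons with other genes, while the proteasome subunit PSMB3 was at 177 FPKM in OE, against 124 in WT. Translation initiation and elongation genes had medians of 0.01 and 0.09 over 36 members, 18 above 0 and 18 below as deposited, and none was at least 2-fold apart as deposited. EIF4B, a cofactor of the translation initiation helicase, stood at 112 FPKM in OE, against 56.4 in WT, a difference of 0.98 that was 1.10 after correction, and EIF4A1, which encodes that helicase and shares exons with another gene, at 70.98 FPKM in OE, against 118 in WT.

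Cell cycle regulators split. CDK4, the kinase that starts G1 progression with D cyclins, was at 190.4 FPKM in OE, against 73.5 in WT, 2.59-fold higher (2.43 to 2.76). CDKN2B, the CDK4 inhibitor p15, stood at 5.36 FPKM in OE, against 2.84 in WT, and CDK6 at 1.78 FPKM in OE, against 2.83 in WT. CDKN1A and CDK4 were the 2 of 17 members at least 2-fold higher, and the list had medians of -0.07 and -0.02. The mitosis list, by contrast, had medians below 0 by both measures, as given above. Among its genes the proliferation marker MKI67 was at 16.1 FPKM in OE, against 14.1 in WT, and CCNB1, cyclin B1, at 75.4 FPKM in OE, against 67.8 in WT. TOP2A, topoisomerase II alpha, stood at 8.50 FPKM in OE, against 14.96 in WT. NUF2 was at 2.78 FPKM in OE, against 5.87 in WT. NUSAP1, which shares exons with another gene, stood at 14.5 FPKM in OE, against 27.9 in WT.

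Of 28 measured p53 targets 19 stood below 0 as deposited and 19 after correction, not all the same genes, with a median of -0.21 by each. Of all members 60.3% stood below 0 as deposited and 50.1% after correction. CDKN1A was the 1 member at least 2-fold higher and TP53INP1, a promoter of p53-dependent death and autophagy, the 1 member lower, at 1.06 FPKM in OE, against 3.20 in WT. The difference of TP53INP1 was -1.03 as deposited and -0.64 after correction. GDF15, a stress cytokine that ATF4 also induces, was at 25.3 FPKM in OE, against 12.6 in WT.

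The caspase list, which also holds CRADD and PIDD1, had medians of -0.31 as deposited and -0.12 after correction. None of its 10 measured members was at least 2-fold apart. CASP2, which acts in response to DNA damage, was at 4.01 FPKM in OE, against 7.80 in WT, 1.94-fold lower (1.64 to 2.31). The BCL2 family had medians of 0.18 and 0.03 over 14 members, with none at least 2-fold apart on the log2(FPKM + 1) scale. MCL1, a survival protein, was at 103 FPKM in OE, against 149 in WT. BCL2L11, which encodes the death activator BIM, was at 1.61 FPKM in OE, against 0.426 in WT, 3.78-fold higher (2.24 to 6.84) as a ratio of FPKM, at low levels that the log2 scale understates (0.87). The list of death and decoy receptors, which also holds FADD, RIPK1 and TRADD, had medians of -0.16 and -0.25. Of its 10 measured members 9 were below 0 after correction, the TRAIL receptor gene TNFRSF10B standing at 33.6 FPKM in OE, against 39.3 in WT. TNFRSF1A, the main TNF receptor, was the exception at 44.3 FPKM in OE, against 29.1 in WT.

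Cytokine receptors and SOCS genes were lower as a list. Of 31 measured, 22 stood below 0 as deposited and 23 after correction, where 60.3% and 50.1% of all members did. The medians were -0.27 and -0.13, and 4 genes were at least 2-fold lower, where 1.58% of all members were. Beside IL13RA2, these were IL6ST, the signalling subunit of interleukin-6 family receptors, at 0.403 FPKM in OE, against 2.07 in WT, IFNAR1, a subunit of the type I interferon receptor, at 2.62 FPKM in OE, against 7.63 in WT, and SOCS7, a suppressor of cytokine signalling, at 0.384 FPKM in OE, against 2.57 in WT. After correction IL6ST was under 2-fold, at -0.75. Interferon-stimulated and antigen presentation genes had medians of -0.01 and -0.05, with IFI27, an interferon-induced protein, at 0.946 FPKM in OE, against 3.49 in WT, and HLA-B, a class I antigen-presenting chain, at 30.2 FPKM in OE, against 56.2 in WT. On the higher side, IFI6 was at 7.76 FPKM in OE, against 5.18 in WT. IFITM1, which shares exons with another gene, was also higher, at 11.5 FPKM in OE, against 8.21 in WT.

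Immediate early and AP-1 genes had medians of 0.04 and -0.03 over 27 members, with 1 higher, ATF3, and 3 lower. Besides IER2 and ZFP36, the lower gene was CCN2, a matricellular target of YAP and TGF-beta, at 0.173 FPKM in OE, against 2.41 in WT. FOS, by contrast, stood at 4.24 FPKM in OE, against 1.97 in WT, and CCN1, a relative of CCN2 and also a YAP target, at 77.5 FPKM in OE, against 47.2 in WT. SMAD3, a transducer of TGF-beta, was at 2.52 FPKM in OE, against 0.243 in WT, 10.4-fold higher (4.60 to 30.001), at low levels in both libraries. The ERK feedback list had medians of -0.01 and 0.03 over 23 members, and DUSP3 and DUSP6 were its 2 members at least 2-fold lower.

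Hypoxia and glycolysis genes had medians of -0.18 and -0.15, with 24 of 33 below 0 as deposited, where 60.3% of all members were, and 3 at least 2-fold lower, where 1.58% of all members were. These were NDRG1 (6.10 FPKM in OE, against 14.1 in WT), a hypoxia-induced growth regulator, P4HA1 (5.50 FPKM in OE, against 12.5 in WT), a collagen prolyl hydroxylase, and CA9 (1.04 FPKM in OE, against 3.21 in WT), carbonic anhydrase IX. After GC correction P4HA1 was under 2-fold, at -0.67. HK2, the inducible hexokinase, stood at 14.8 FPKM in OE, against 27.8 in WT. PKM and GAPDH, glycolytic enzymes with high levels that were named from the high end of the list, were on the other side. PKM stood at 283 FPKM in OE, against 165 in WT, and GAPDH at 3127 FPKM in OE, against 2347 in WT. The named hypoxia-induced genes and these 2 enzymes thus differed in direction within the list.

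Mesenchymal transition genes had the lowest medians of the lists, -0.52 as deposited and -0.35 after correction, with 9 of 11 measured members below 0 and none at least 2-fold apart. VIM, the intermediate filament vimentin, was at 2.74 FPKM in OE, against 5.72 in WT, ZEB1, a repressor of epithelial genes, at 2.88 FPKM in OE, against 6.59 in WT, and CAV1, of caveolae, at 1.62 FPKM in OE, against 3.69 in WT. MSN, the membrane-actin linker moesin, stood at 11.6 FPKM in OE, against 7.22 in WT. Epithelial junction and keratin genes had medians of -0.22 and -0.05 over 13 members. KRT18, a keratin of simple epithelia, was at 71.8 FPKM in OE, against 37.4 in WT, and DSG2, a desmosomal cadherin, at 8.10 FPKM in OE, against 14.6 in WT.

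In small families the counts of members at least 2-fold apart were 1 or 2, where 2.54% of all members were, which is close to 1 gene in a family of this size. Of 36 measured RAB GTPases RAB5B alone differed at least 2-fold. By each measure 27 stood below 0, where 60.3% of all members did as deposited and 50.1% after correction. Of 30 TRIM ubiquitin ligases TRIM32 alone did, of 20 RGS and G protein regulators RGS4 alone, and of 31 autophagy genes MAP1LC3C alone. UBE2K and UBE2Q2, ubiquitin-conjugating enzymes, were the lower ones of 31, at 7.59 FPKM in OE, against 18.04 in WT, and 3.70 FPKM in OE, against 8.51 in WT. Both were under 2-fold after GC correction. PFN2 and CFL2, which bind actin monomers and sever actin filaments, were the lower ones of 34 actin and focal adhesion genes, at 8.47 FPKM in OE, against 22.9 in WT, and 3.53 FPKM in OE, against 10.1 in WT. After correction CFL2 was under 2-fold, at -0.90.

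By position, differences in RKO formed blocks along some chromosomes. Windows of 20 megabases by gene start (GENCODE release 29, GRCh38), with at least 20 members in each line, were examined after chromosome medians had been seen, which gave 138 windows. GC-corrected medians ran from -0.25 to 0.22 in RKO and from -0.08 to 0.15 in HCT116, and 16 windows in RKO and 2 in HCT116 lay beyond 0.1 on either side. The 5 highest windows in RKO all lay on chromosomes 12 and 16, and the 3 lowest all on chromosome 10.

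**Figure D4:**
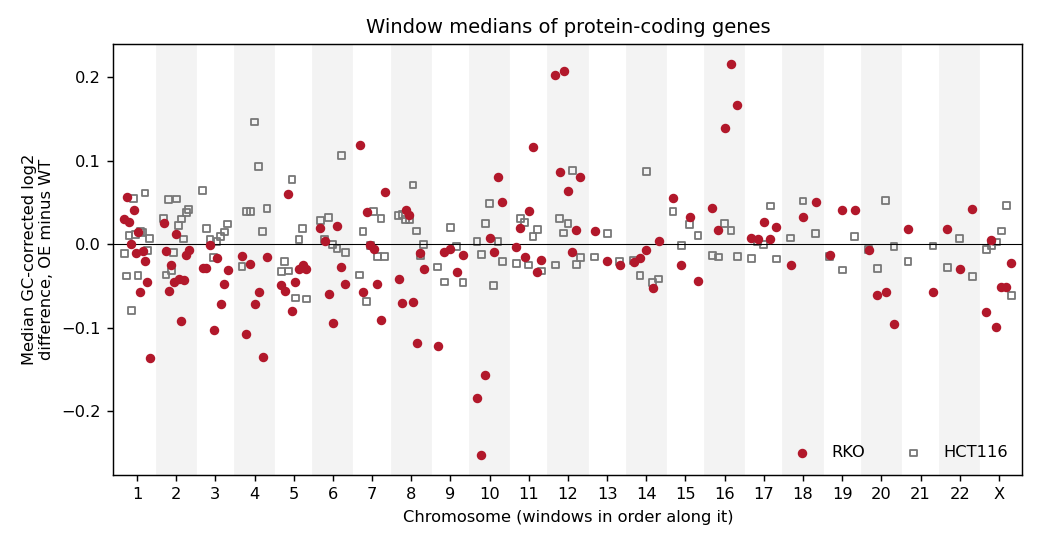
Median GC-corrected log2 difference, OE minus WT (vertical), of protein-coding genes in windows ordered along each chromosome (horizontal), with filled circles for RKO and open squares for HCT116. RKO windows reach 0.22 on chromosome 16 and -0.25 on chromosome 10, and HCT116 windows lie between -0.08 and 0.15.

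On chromosome 16 the window from 60 to 80 Mb had a median of 0.22 over 103 genes, 76.7% of them above 0. As deposited, 0 genes of this window were at least 2-fold higher and 2 were lower. Its neighbours from 40 to 60 Mb and from 80 Mb onward had medians of 0.14 (58 genes) and 0.17 (61 genes), while the windows from 0 to 40 Mb stood at 0.04 and 0.02. On chromosome 12 the window from 40 to 60 Mb had a median of 0.21 over 167 genes, with 77.2% above 0. As deposited, 8 of its genes were at least 2-fold higher and 2 lower. The chromosome 12 window from 0 to 20 Mb had a median of 0.20 over 87 genes. On chromosome 10 the windows from 0 to 60 Mb were at -0.18 (55 genes), -0.25 (33 genes) and -0.16 (30 genes). The same 8 windows in HCT116 had medians between -0.02 and 0.03. Several genes described above lie there. In the chromosome 12 block from 40 to 60 Mb are CDK4 (chr12:57747727-57756013), RAB5B (chr12:55973913-55996683), TUBA1A, TMBIM6, KRT18 and EIF4B, all higher in OE, and SLC38A2, which was lower. GAPDH, NOP2 and TNFRSF1A, all higher in OE, lie in the chromosome 12 block from 0 to 20 Mb. The chromosome 16 block holds SLC7A5 (chr16:87830023-87869488) and HERPUD1, which were higher, and CALB2, which was lower. VIM, ZEB1 and ITGB1, an integrin chain (101 FPKM in OE, against 161 in WT), lie in the chromosome 10 block. The number of copies of these segments was not measured.

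Across the 8915 genes measured in both lines, the RKO and HCT116 differences had a Spearman rho of -0.253 as deposited and -0.198 after GC correction in each line, a description across genes from tables normalized separately. The corrected differences still followed the mean level, with rho 0.178 in RKO and -0.229 in HCT116. With transcript length, rho was -0.121 in RKO and 0.197 in HCT116. How much of the negative correlation goes with these opposite trends was not tested. Of 199 such genes at least 2-fold apart in RKO and 126 in HCT116 (where 1.6% of all 10061 genes measured in that line were), 32 were in both lists, 16.1% of the RKO list and 25.4% of the HCT116 list. Of the 32, 11 differed in the same direction and 21 in opposite directions. A further 45 genes that differed in RKO were not measured in HCT116.

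**Figure D5:**
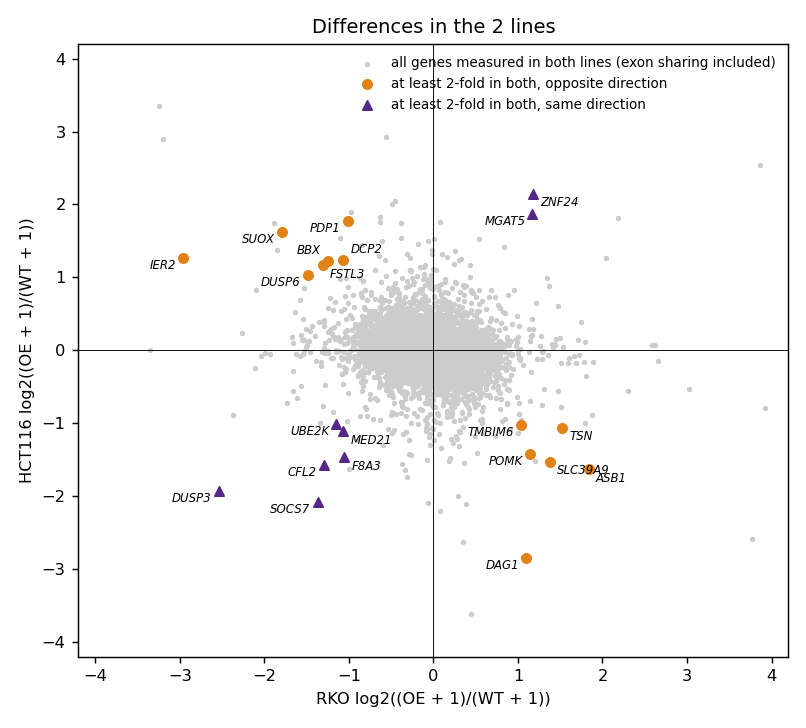
Log2((OE + 1)/(WT + 1)) of FPKM in RKO (horizontal) against HCT116 (vertical) for 8915 protein-coding genes measured in both lines. The genes named in the plot share no exons and differ at least 2-fold in both lines, 13 in opposite directions (circles) and 8 in the same direction (triangles).

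Among genes with official symbols and no shared exons, 13 were opposite and 8 alike. At least 2-fold in both lines after GC correction as well were 9 of the 13 and 5 of the 8. Those that were not were BBX, DCP2, PDP1 and DAG1 among the opposite ones and CFL2, UBE2K and MED21 among those alike. Lower in OE of RKO and higher in OE of HCT116 were IER2 (80.9 FPKM in OE and 33.2 in WT of HCT116) and DUSP6 (64.2 in OE and 30.8 in WT of HCT116). SUOX, sulfite oxidase, was at 1.67 FPKM in OE, against 8.26 in WT, of RKO and at 5.88 in OE, against 1.24 in WT, of HCT116. Higher in OE of RKO and lower in OE of HCT116 were ASB1 (0.965 in OE and 5.08 in WT of HCT116), TSN (7.86 in OE and 17.5 in WT) and TMBIM6 (43.5 in OE and 89.7 in WT). Lower in both lines by both measures were DUSP3, SOCS7 and F8A3, lower in both as deposited were CFL2, UBE2K and MED21, and higher in both were MGAT5, a glycan-branching enzyme (6.57 FPKM in OE, against 2.36 in WT, of RKO), and ZNF24, a zinc finger protein (4.55 FPKM in OE, against 1.45 in WT, of RKO). These genes were listed after their values were seen, and the difference between lines was not tested.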

How the data were processed

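Poly(A)-selected RNA from RKO cells, OE and WT, was sequenced from both fragment ends (per the labels' protocols) and the HCT116 libraries were used for comparison. The authors deposited 1 table per line with FPKM per gene and library, genes without signal being set to 0.0001. The deposited fold, log2 fold, p-value and q-value of each gene come from a comparison by the authors whose method is not stated in the labels or files. Per the submitters' processing notes, StringTie 1.3.0, HISAT2 2.0, Bowtie 0.12.2 and the mouse build mm8 were used, with no role given, while the identifiers are human. Of 60612 identifiers, 58394 were found in GENCODE release 29, which gave positions, lengths and GC content, and older symbols were brought to official ones.

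Differences used a pseudocount of 1 FPKM. GC correction subtracted a lowess trend (statsmodels 0.14.6, fraction 0.3) fitted over members. Fragments were estimated from the commonest lowest step of FPKM times kilobases in single-exon genes of at least 400 nucleotides, an estimate only, and fold intervals are exact conditional (Clopper-Pearson, SciPy 1.17.1). A count of 0, which allows 3 fragments, allows 0.153 FPKM in OE and 0.147 in WT on 1 kilobase. Named genes are AVEN, the 15 highest and 15 lowest as defined above, and list members past 2-fold or at the ends of a list, and further members were named after their values were seen. Members and lists were chosen with earlier results of these data known. The calculation was tested on simulated data.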

Additional observations from a re-analysis of the deposited data

Results flagged for a closer look

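The dependence of the difference on GC content in RKO (rho 0.579) was set apart because HCT116 ran the other way (-0.132), across genes. Among the genes named by rule, 4 were at least 2-fold apart in opposite directions in the 2 lines. TSN had a log2 difference of 1.53 in RKO and -1.06 in HCT116, and ASB1 of 1.83 in RKO and -1.63 in HCT116. DUSP6 had a log2 difference of -1.49 in RKO and 1.04 in HCT116, and IER2 of -2.96 in RKO and 1.26 in HCT116. With 1 library per group these differences between lines were not tested.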

How the results depend on the processing

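No paired analysis was possible because each group has 1 library, and for the same reason no replicate could be left out. A pseudocount of 0.1 gave 130 higher and 306 lower genes, and a mean of at least 5 FPKM gave 57 higher and 75 lower genes. The median difference over protein-coding genes in RKO was -0.12 with a pseudocount of 0.1, -0.0123 at a mean of at least 5 FPKM, 0 with no filter on the mean, -0.000215 after GC correction, -0.000921 after GC and length correction, -0.0098 after centring, -0.0126 after quantile normalization and -0.14 after rescaling without mitochondrial genes. The GC trend in RKO was 0.404 with no filter, 0.559 after quantile normalization and 0.545 with the GC content of the coding sequence, chosen after seeing the data. After GC correction it was 0.00162 and after GC and length correction -0.0175, of opposite sign, which the correction itself brings about. AVEN stayed at least 2-fold higher in the 7 other settings in which its difference was computed, between 1.18 and 1.66, and it does not reach the 5 FPKM minimum. Of 52 named genes at least 2-fold apart, 8 were under 2-fold after GC correction and 0 changed sign. This count cannot show how well calls survive the correction. The highest and lowest genes were chosen to be at least 2-fold apart by both measures, so they could not fail. Among all members, 175 of the 244 genes at least 2-fold apart as deposited were so by both measures. Low levels limit AVEN, ATF3, SMAD3, CCN2, IL6ST, IFI27, CA9 and H4C11, among others, since each rests on few fragments in 1 library.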
